A study of Mus musculus with 20 samples.

Results

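The heat shock genes studied here encode chaperones of the cytosol and of the mitochondrial matrix. The list named 10 genes, and of the probe sets annotated to a single one of them, the one brightest on average over the 20 arrays stands for its gene. Values were obtained for 9 of them, out of 18194 genes measured, from 22 probe sets in all. The transcription factor gene Hsf1 had no probe set annotated to it here and was not analysed.

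The samples were CFU-E cells, red cell progenitors named for the colonies they form, which depend on the hormone erythropoietin (Epo). They came from fetal livers of BALB/c mouse embryos at day E13.5. Cells of other lineages had been removed with antibodies and magnetic beads. In the series with Epo, 12 arrays of cells given 0.5 U/ml covered 0 to 8 h in hourly steps and then 14, 19 and 24 h; untreated cells had 8 arrays, hourly up to 7 h. Each treatment and hour had 1 array, no animal or culture is named in the labels, and the p-values therefore measure the scatter between successive hours, which may be technical. What was done before 0 h is described both as a short starvation after sorting and as a longer culture in medium with serum that already contained Epo. The labels carry the same text for all 20 samples and do not settle which of these each series went through.

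Chaperones bind proteins that are unfolded or newly made and help them reach or regain their shape. When unfolded proteins accumulate, the factor HSF1 is released from its chaperone partners, forms trimers and binds repeated short elements in the promoters of heat shock genes. HSPA1A and HSPA1B are the inducible cytosolic HSP70 proteins, HSPA8 is the constitutive one, DNAJB1 is an HSP40 co-chaperone that delivers clients to them, and HSPH1 exchanges their nucleotide. HSP90AA1 is the inducible cytosolic HSP90, HSPB1 a small heat shock protein, and HSPD1 and HSPE1 are the HSP60 barrel and the HSP10 lid of the mitochondrial chaperonin. In human erythroid cells, HSP70 is known to protect the transcription factor GATA1 from cleavage by caspase-3 while Epo is present.

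Promoter windows of 300 bases, most of them before the start site, were found for 7 of the 10 genes (RefSeq, build GRCm38.p6). They were searched on both strands for the letters of heat shock elements, as 3 units (GAANNTTCNNGAA or TTCNNGAANNTTC) and as 2 units (GAANNTTC or TTCNNGAA, each of which reads the same on the other strand and lies within the 3-unit forms). The 3-unit letters were in the windows of Hsph1, Hspd1 and Hspe1, against 0.662% of the 27025 genes with a window. The 2-unit letters were in those of 6 of the 7 genes, against 17% of all genes, and Dnajb1 had no match. The windows of Hspa1a and Hspa1b, which lie near each other on chromosome 17, were 98.7% identical, with a 2-unit match 104 bases before the start site in both. Hspd1 and Hspe1 are transcribed away from each other on chromosome 1, and 1 window of Hspd1 shared 285 of its 300 bases with that of Hspe1, so a single run of overlapping matches, 89 bases before the Hspe1 start site, served for both. These matches are letters in a window and do not show that a factor was bound. The windows are shown for Hspa1a, for Hsph1 and for the shared stretch, because the genes with the widest ranges and the chaperonin pair are the ones that the values below turn on; capitals mark the matched letters.
Hspa1a, chr17:34972107-34972406, minus strand: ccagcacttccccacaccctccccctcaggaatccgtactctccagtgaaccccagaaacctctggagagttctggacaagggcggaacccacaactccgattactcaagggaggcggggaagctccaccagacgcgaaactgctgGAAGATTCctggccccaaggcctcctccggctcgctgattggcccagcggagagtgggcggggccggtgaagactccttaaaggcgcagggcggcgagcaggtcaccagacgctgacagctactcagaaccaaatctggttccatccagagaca
Hsph1, chr5:149636287-149636586, minus strand: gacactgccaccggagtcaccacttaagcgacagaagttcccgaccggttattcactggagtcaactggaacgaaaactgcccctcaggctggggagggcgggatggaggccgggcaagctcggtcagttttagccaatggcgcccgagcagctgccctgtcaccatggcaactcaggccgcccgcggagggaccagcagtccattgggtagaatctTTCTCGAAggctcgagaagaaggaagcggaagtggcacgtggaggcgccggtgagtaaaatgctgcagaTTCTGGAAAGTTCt
Hspe1 (shared with Hspd1), chr1:55087898-55088197, plus strand: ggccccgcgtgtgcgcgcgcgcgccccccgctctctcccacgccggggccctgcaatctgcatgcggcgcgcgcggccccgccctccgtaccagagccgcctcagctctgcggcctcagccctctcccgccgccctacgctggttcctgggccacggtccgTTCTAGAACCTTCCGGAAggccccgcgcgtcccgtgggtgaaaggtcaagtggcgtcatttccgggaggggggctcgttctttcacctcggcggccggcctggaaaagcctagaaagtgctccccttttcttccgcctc

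The labelled cell type and its company were checked on lists of markers. Of 11 erythroid markers, 0 were called higher and 6 lower with Epo at 1 to 7 h, against 18.2% and 20.2% of all genes. The strongest of these was Kit, the stem cell factor receptor of progenitors, at 5.00 to 6.68 with Epo and 7.75 to 8.08 without, after a difference of -1.40 at 0 h. Tfrc, the transferrin receptor gene, lay at 12.32 to 13.31 with Epo and 12.66 to 13.51 without (log2 expression, as throughout), and Klf1, an erythroid transcription factor gene, at 11.50 to 12.33 and 11.32 to 12.80. The probe set annotated to the globin gene Hba-a1 alone, singled out after its values were seen, was dim at 3.22 to 3.60 and 3.19 to 3.59, where the median of all probe sets on an array was 3.93 to 4.15. Liver cell transcripts were present, with Alb, the albumin gene, at 10.85 to 12.49 with Epo and 10.26 to 11.67 without. At 0 h, 11 of 11 hepatocyte markers were higher in the series with Epo (median log2 difference 1.46, against -0.01 over all genes). At 1 to 7 h, 9 of 11 were called higher, against 18.2% of all genes. The summed hepatocyte level spanned 12.87 to 15.09 with Epo and 12.34 to 14.01 without over 0 to 7 h; its part in the differences below was not tested. Granulocyte markers went the other way at 0 h, with 1 of 10 higher and 3 lower by at least 1: Mpo (-2.26), Prtn3 (-2.13) and Ctsg (-1.60), enzymes of myeloid granules. Their summed level spanned 8.50 to 9.35 with Epo and 8.57 to 10.98 without over 0 to 7 h. At 1 to 7 h, 1 of 10 was called higher and 2 lower, against 18.2% and 20.2% of all genes. The part of granulocytes in the differences was not tested either. In RNA from whole cell samples, fewer cells of a type and less RNA per cell cannot be told apart.

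At 0 h the inducible HSP70 genes already stood apart between the series. Hspa1a lay at 8.86 with Epo and 5.81 without, a log2 difference of 3.06, and Hspa1b at 9.88 and 7.85, a difference of 2.03. In folds these were 8.32 and 4.08, and among all 18194 genes the Hspa1a difference was the sixth highest (rank 6) and that of Hspa1b had rank 45. The other 7 genes were within 0.71 of each other at 0 h: Hsp90aa1 (-0.71), Hsph1 (-0.66) and Hspd1 (-0.64) were lower with Epo, and Hspa8 (-0.18), Hspb1 (-0.09), Dnajb1 (-0.08) and Hspe1 (0.17) lay closer together. A difference of at least 1 on the log2 scale was thus present in 2 of 9 heat shock genes, against 3.03% of all genes (2.4% higher and 0.632% lower). With 1 array on each side there is no test at this hour.

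**Figure D1:**
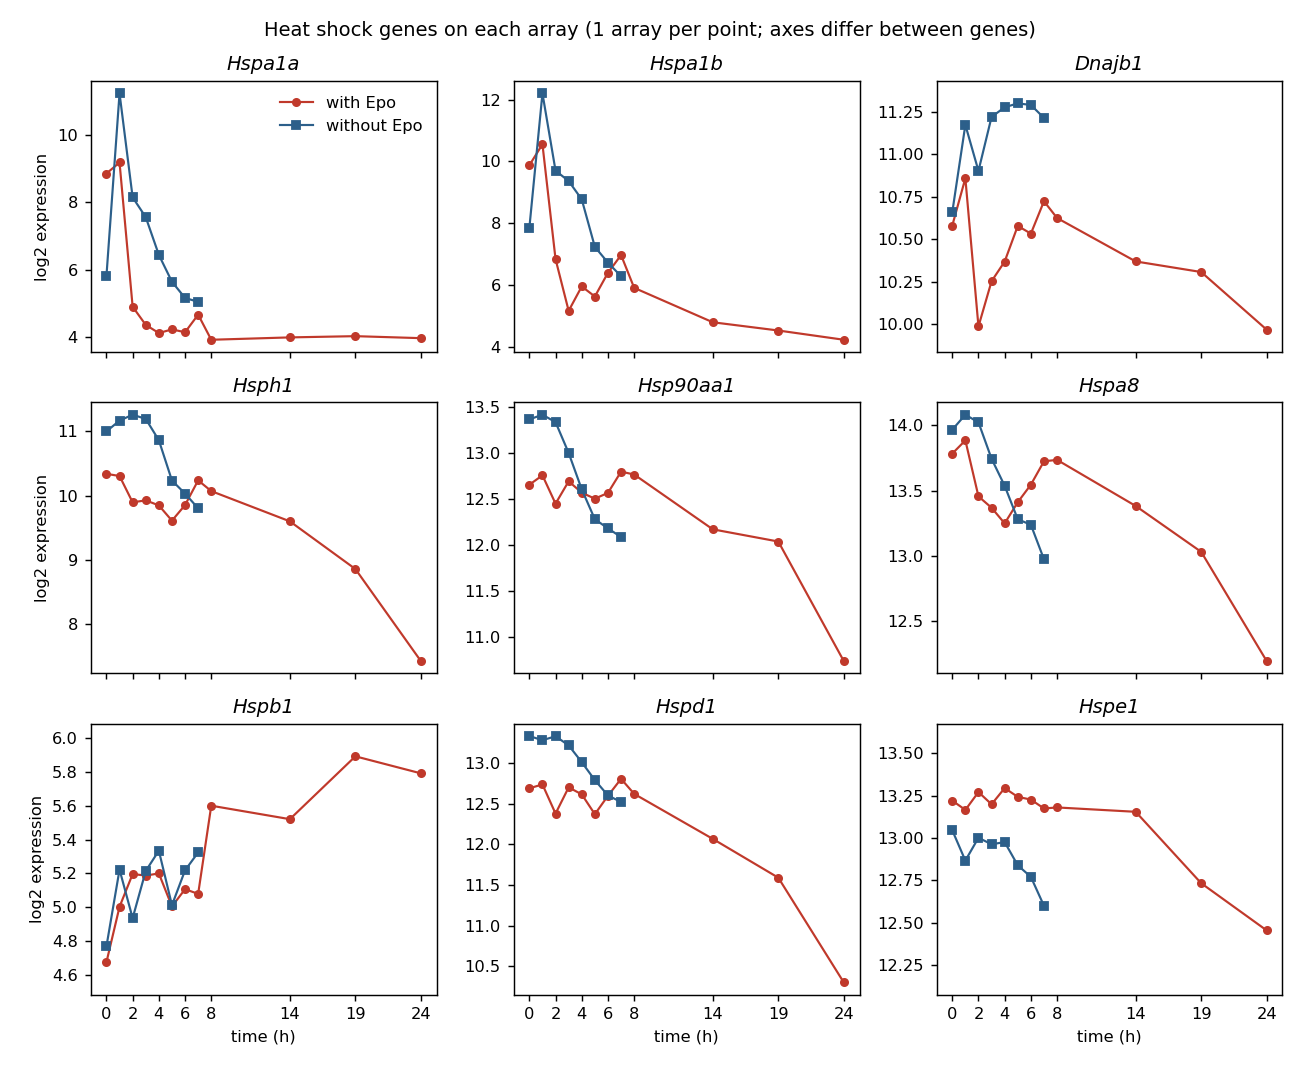
Log2 expression (vertical axis) of the 9 heat shock genes against time in hours, with 1 point per array, in the series with Epo (red circles) and without (blue squares). Hspa1a and Hspa1b peak at 1 h in both series, and Hsph1, Hsp90aa1, Hspa8 and Hspd1 end lower at 7 h than at 1 h without Epo while the arrays with Epo hold until 8 h.

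In the first hour Hspa1a and Hspa1b increased steeply without Epo and little with it. Hspa1a lay at 11.25 at 1 h without Epo, 5.44 above its own 0 h array, which is 43.5-fold and rank 2 of all genes in that series. With Epo it lay at 9.19, which is 0.33 above its 0 h array. Hspa1b was 4.35 above its 0 h value without Epo (20.4-fold, rank 5) and 0.68 above it with Epo. Rises of at least 1 were found in 0.341% of all genes with Epo and 0.374% without, and falls of that size in 0.951% and 0.269%. Dnajb1 was 0.28 above its 0 h array with Epo and 0.52 without. Hspb1 was 0.33 above it with Epo and 0.45 without, and the remaining 5 genes stayed within 0.18 of 0 h in both series. Immediate early genes moved in the same hour: Jun, an AP-1 gene chosen for this after its values were seen, was 1.63 above its 0 h array with Epo and 6.00 without, and their summed level over 0 to 7 h spanned 10.55 to 12.47 with Epo and 10.21 to 13.51 without. Whether these changes are linked to those of the HSP70 genes was not tested.

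After 1 h the inducible HSP70 transcripts declined in both series, and the drop from 1 to 2 h was the larger with Epo. With Epo, Hspa1a lay at 8.86, 9.19, 4.90, 4.35, 4.11, 4.22, 4.14 and 4.66 in hourly order from 0 h to 7 h. Without Epo it lay at 5.81, 11.25, 8.15, 7.56, 6.44, 5.64, 5.16 and 5.04 at the same hours. From 2 h on every array with Epo was below all 8 without, while those without Epo came down hour by hour and passed below their own 0 h value only at 5 h. Hspa1b with Epo lay at 9.88, 10.55, 6.84, 5.17, 5.96, 5.64, 6.40 and 6.98 from 0 to 7 h. Without Epo it lay at 7.85, 12.20, 9.70, 9.37, 8.77, 7.24, 6.73 and 6.29. The order of the series turned at the end: at 7 h Hspa1b was 0.68 higher with Epo, after being lower by up to 4.19 at 3 h.

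Which genes differed between the series after 0 h was asked with the average over 7 same-hour differences (1 to 7 h, with Epo minus without, on the log2 scale ± SE, from limma with the hour as a block). Hspa1a was lower with Epo by a mean of -1.95 ± 0.31 (adjusted p = 0.000408), in 7 of 7 pairs, and Hspa1b by -1.82 ± 0.46 (adjusted p = 0.00822), in 6 of 7. The ranges of the arrays overlapped for both, at 4.11 to 9.19 with Epo and 5.04 to 11.25 without for Hspa1a. Without the hours as a block, neither passed (adjusted p = 0.107 and 0.114). HSPA1A and HSPA1B have near-identical messages, and their probe sets followed each other over the 20 arrays (Pearson r = 0.96, arrays of 2 time courses), so the share of each gene in the signal is uncertain. The 3 probe sets of Hspa1b gave -1.82, -1.82 and -1.80.

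The co-chaperone genes Dnajb1 and Hsph1 were lower with Epo too. Dnajb1 lay at 9.98 to 10.86 with Epo and 10.90 to 11.30 without, with no overlap, and the difference was -0.73 ± 0.09 (adjusted p = 6.45e-05). A second probe set of Dnajb1 gave -0.40 with overlapping arrays. Hsph1 lay at 9.61 to 10.31 with Epo and 9.80 to 11.26 without, a difference of -0.70 ± 0.19 (adjusted p = 0.0114), after -0.66 at 0 h. It was lower in 6 of 7 pairs, and its other probe set gave -1.10. Over all genes, 18.2% were called higher and 20.2% lower in this comparison, so the calls in 6 of the 9 heat shock genes, 1 higher and 5 lower, stand beside 38.4% of all genes. Higher calls made up 47.44% of all calls here, and 34.81% with each array centred on its median, which left the counts of the 9 genes as they were. Arrays of the series did not overlap for 2 of the 9 genes, Dnajb1 and Hspe1, against 13.9% of all genes (6.56% with Epo above, as for Hspe1, and 7.31% below, as for Dnajb1).

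The abundant Hsp90aa1 and Hspa8, and the dim Hspb1, did not pass the test of the mean. Hsp90aa1 averaged 12.62 ± 0.13 with Epo and 12.70 ± 0.55 without (SD, n = 7 hours each), a difference of -0.08 ± 0.16 (adjusted p = 0.733). Hspa8 averaged 13.52 ± 0.22 and 13.55 ± 0.42, a difference of -0.03 ± 0.13 (adjusted p = 0.863). In both genes the hours spread over a wider range without Epo, from 12.09 to 13.42 for Hsp90aa1, than with Epo, from 12.45 to 12.80, which the mean over hours does not show. The other bright probe sets of Hsp90aa1 gave -0.27 (higher with Epo in 1 of 7 pairs) and -0.13. Its dim ones, at means of 4.02 and 2.84 over the 20 arrays, gave 0.22 and -0.04. Hspb1 was at -0.07 ± 0.09 (adjusted p = 0.568), and its arrays lay at 5.00 to 5.20 with Epo and 4.94 to 5.33 without. Its other probe set was 0.33 higher with Epo, in 7 of 7 pairs and with overlapping arrays. The direction for Hspb1 at 1 to 7 h thus depends on the probe set. With the mean of all its probe sets Hspb1 was at 0.13 (limma, adjusted p = 0.128). Of 4 probe sets of Hspa8, a dim one went apart from the 3 bright ones, which gave -0.03, -0.13 and -0.30: it was 1.42 higher with Epo, with no overlap between arrays (5.49 to 6.74 with Epo, 4.18 to 5.23 without).

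The chaperonin pair split. Hspd1 was lower with Epo, at 12.37 to 12.80 against 12.52 to 13.33 without, by -0.36 ± 0.12 (adjusted p = 0.0275). Leaving out 1, 2, 3, 4 or 5 h ends this call (adjusted p = 0.0528 to 0.0719), with the difference then at -0.27 to -0.36. Hspe1, its lid, was higher with Epo in 7 of 7 pairs, at 13.17 to 13.29 against 12.60 to 13.00 without, by 0.37 ± 0.05 (adjusted p = 0.000138), and its second probe set was higher by 0.84. From 0 to 7 h, Hspe1 with Epo lay above all its arrays without Epo. Both genes share the promoter stretch shown above.

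**Figure D2:**
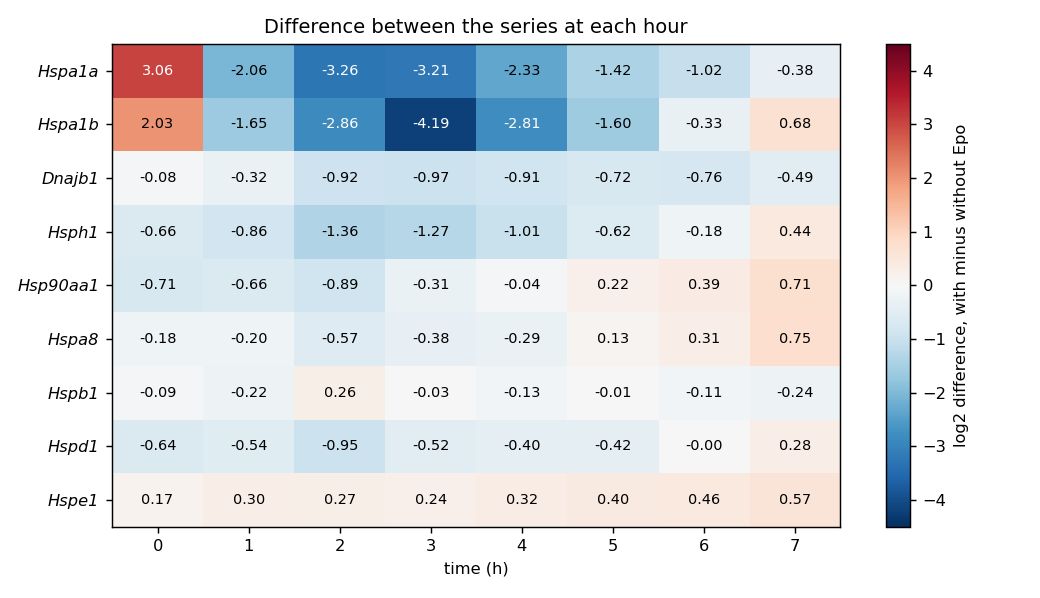
Log2 difference, with minus without Epo, at each hour (columns) for each heat shock gene (rows), with the value written in each cell and blue for lower with Epo. The HSP70 genes go from 3.06 and 2.03 at 0 h to their lowest differences at 2 and 3 h, and Hsp90aa1, Hspa8, Hsph1 and Hspd1 turn from negative to positive by 7 h.

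Taking the difference at 0 h away changed the picture for single genes. The mean at 1 to 7 h minus the difference at 0 h was -5.01 ± 0.87 for Hspa1a (adjusted p = 0.0697, and 0.0203 without 1 h or 0.0479 without 7 h) and -3.85 ± 1.30 for Hspa1b (adjusted p = 0.562). With a linear drift of the differences allowed, both passed (adjusted p = 0.000159 and 0.0233), and so did Hsp90aa1, at 0.63 (adjusted p = 0.02, against 0.718 without drift). For Hsph1 the value was -0.04 ± 0.53 and for Hspd1 0.28 ± 0.33, and neither passed, both having been lower with Epo already at 0 h. Dnajb1 was at -0.65 ± 0.25 (adjusted p = 0.617). Of the 9 genes, 0 were called here by limma, where 0.066% of all genes were called (0.0165% higher and 0.0495% lower) and 1446 of 18194 had an unadjusted p under 0.05; Hspa1a, Hspa1b and Dnajb1 were among the latter (p = 0.000111, 0.0124 and 0.0233). These values rest on a single pair of 0 h arrays.

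From 1 to 7 h the difference between the series moved upward for most of the genes. The slope of the matched differences from 1 to 7 h was positive and passed the test for 6 of 9 genes, against 7.26% of all genes called in this direction, 7.97% in the other and 15.2% in either. It was 0.26 ± 0.02 per hour for Hsp90aa1 (adjusted p = 1.55e-05), 0.25 ± 0.05 for Hsph1 (adjusted p = 0.00336), 0.18 ± 0.03 for Hspa8 (adjusted p = 0.00114) and 0.16 ± 0.03 for Hspd1 (adjusted p = 0.00156). For Hspa1a it was 0.40 ± 0.09 (adjusted p = 0.00561) and for Hspa1b 0.52 ± 0.15 (adjusted p = 0.0275). With Epo, Hspa1a was dim from 2 h on, at 4.11 to 4.90 up to 7 h. The median of all probe sets on an array was 3.93 to 4.15. A straight line describes these 2 genes poorly, since their differences fell first. The lowest were -3.26 at 2 h for Hspa1a and -4.19 at 3 h for Hspa1b. Without the 7 h arrays 3 genes were called, with Hspa1a, Hspa1b and Hsph1 at adjusted p = 0.0604, 0.27 and 0.0556. Hspa1b also lost its call without 2 or 6 h (adjusted p = 0.0864 and 0.095). Hspe1 lay just past the threshold (0.049 ± 0.016 per hour, adjusted p = 0.0508, and 0.0346 without 1 h), and Dnajb1 (0.0012 ± 0.0371) and Hspb1 (-0.029 ± 0.044) had no slope that passed. At 2 h, 7 of the 9 genes were lower with Epo, and at 7 h 6 of the 9 were higher. The comparisons of the mean, of the 0 h contrast and of the slope use the same arrays and are not independent of each other.

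For 4 of these 6 genes the levels without Epo went down while those with Epo held. From 1 to 7 h Hsp90aa1 changed by 0.04 with Epo and by -1.33 without, Hspa8 by -0.16 and -1.11, Hsph1 by -0.07 and -1.36, and Hspd1 by 0.07 and -0.76. Hspa1a and Hspa1b went down in both series. Hspa1a changed by -4.53 with Epo and -6.21 without, and Hspa1b by -3.58 and -5.91. In the same arrays without Epo, 11 of 11 hepatocyte and 5 of 10 granulocyte markers were called falling, and the slope of the difference was called rising for 0 of 11 and 3 of 10, with Mpo at 0.38 per hour. The difference between 3' and 5' probe sets of Gapdh, a sign of RNA quality, was -0.17 to -0.089 with Epo and -0.012 to 0.085 without at 5 to 7 h. For Actb it was 0.61 to 0.64 with Epo and 0.57 to 0.62 without at these hours. The Actb difference was largest on the 2 h array with Epo, at 0.999, against 0.39 to 0.71 on the others. The part of these in the slopes was not tested. Over the 8 arrays without Epo, from 0 to 7 h, the slope was -0.22 ± 0.02 per hour for Hsp90aa1 (limma, adjusted p = 1.61e-05), -0.16 ± 0.02 for Hspa8 (adjusted p = 2.48e-05), -0.21 ± 0.04 for Hsph1 (adjusted p = 0.000971) and -0.13 ± 0.01 for Hspd1 (adjusted p = 5.25e-05). In this comparison 6 of 9 genes fell and 1 rose, against 15.4% and 13.3% of all genes (28.7% in either direction). Hspe1 fell by 0.049 per hour (adjusted p = 0.0135, and 0.126 without 7 h) and Hspb1 did not pass (0.050 ± 0.027, adjusted p = 0.212). Dnajb1 went against the group and rose by 0.068 ± 0.022 per hour (adjusted p = 0.0366), a call that leaving out 0, 2, 5 or 6 h ends. A straight line describes the HSP70 genes poorly, since they peak at 1 h: Hspa1b passed (-0.55 ± 0.17, adjusted p = 0.0274) and Hspa1a did not (-0.53 ± 0.20, adjusted p = 0.0679), but without the 0 h array Hspa1a was at -0.95 per hour (adjusted p = 0.000179). Hspa1b loses its call without 1, 5, 6 or 7 h (adjusted p = 0.0582 to 0.115).

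Late in the series with Epo most of the heat shock genes fell. The mean of 14, 19 and 24 h was lower than that of 1 to 8 h for 6 of 9 genes and higher for 1, against 18.5% and 17.6% of all genes (36.2% in either direction). Higher calls made up 48.75% of all calls, and 37.07% with each array centred on its median. Of the hepatocyte markers, 10 of 11 also fell late (median -3.34, Alb -3.34), and of the granulocyte markers 3 of 10 fell and 5 rose; their part in the late differences was not tested. Hsph1 lay at 9.60, 8.86 and 7.43 at 14, 19 and 24 h, against 9.61 to 10.31 at 1 to 8 h, a difference of -1.34 ± 0.31 (adjusted p = 0.00334). Hspd1 lay at 12.07, 11.59 and 10.30 late, against 12.37 to 12.80, a difference of -1.28 ± 0.24 (adjusted p = 0.000956). For both genes all late arrays lay below all earlier ones, and each later array was below the one before it. Hsp90aa1 fell by 0.99 ± 0.21 (adjusted p = 0.00228), to 10.74 at 24 h, and Hspa8 by 0.68 ± 0.19 (adjusted p = 0.0109), to 12.19.

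Hspe1 fell by 0.44 ± 0.10 (adjusted p = 0.00397), and by 0.28 without the 24 h array (adjusted p = 0.0285). Hspb1 rose by 0.56 ± 0.14 (adjusted p = 0.00626), with 5.52, 5.89 and 5.79 late against 5.00 to 5.60 before, but its other probe set was 0.31 lower late, so its direction depends on the probe set. Hspa1b fell by 2.16 ± 0.78 (adjusted p = 0.043), and Hspa1a, which with Epo had been down since 2 h, was at -0.95 ± 0.81 (adjusted p = 0.378) with 3.98, 4.02 and 3.96 late, and at -0.34 without the 1 h array (adjusted p = 0.161). Dnajb1 was at -0.28 ± 0.16 (adjusted p = 0.191). The 24 h array had the narrowest spread of values of all 20 (SD 2.31, against 2.42 to 2.58 on the others), and without it the differences were -0.74 for Hsph1, -0.77 for Hspd1, -0.53 for Hsp90aa1 and -0.34 for Hspa8, of which Hspa8 no longer passed (adjusted p = 0.0949). Hspa1b also lost its call without that array (adjusted p = 0.142), and without 2, 6, 7, 14 or 19 h (adjusted p = 0.0553 to 0.102).

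**Figure D3:**
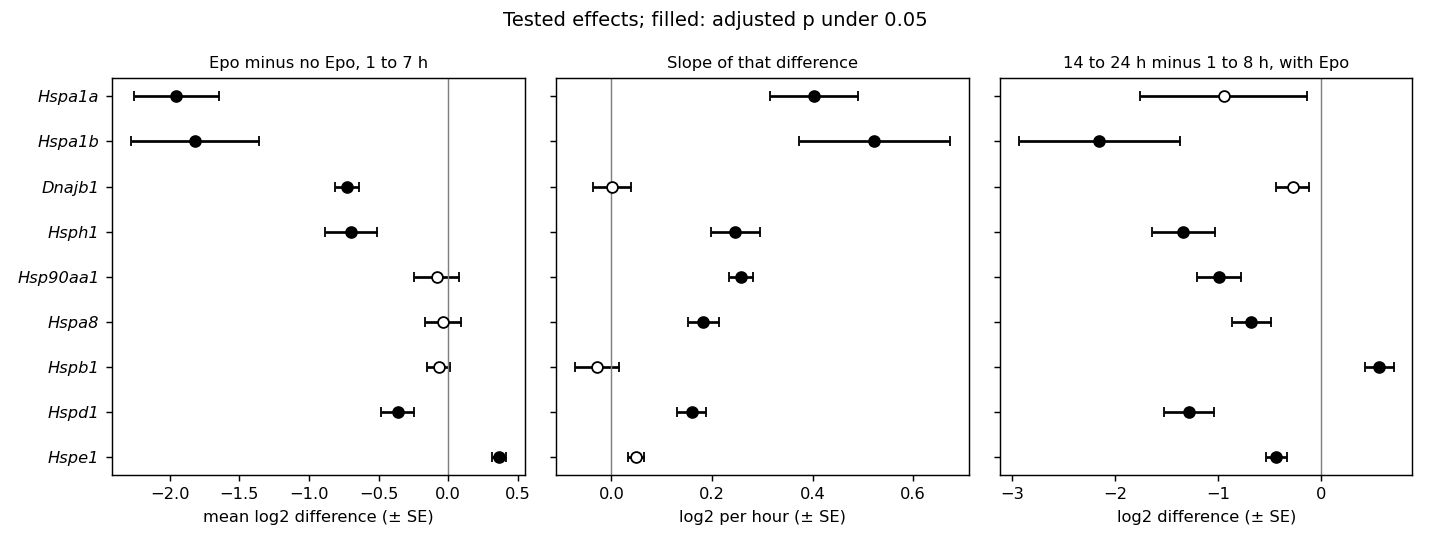
Effects for each heat shock gene (rows) with SE bars, from left to right the mean log2 difference of Epo minus no Epo at 1 to 7 h, the slope of that difference per hour, and the mean of 14 to 24 h minus 1 to 8 h with Epo. Filled points have an adjusted p under 0.05: 6 genes in the first panel, 6 in the second and 7 in the third.

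The related lists are read against the shares of all genes called, which were 38.4% in the mean at 1 to 7 h, 15.2% in the slope, 28.7% over time without Epo and 36.2% late. Of 16 measured partner genes of HSP70, 1 was higher and 6 lower in the mean, near that share (median -0.20, against 0.03 over all genes), and 8 had a rising and 1 a falling slope of the difference (median 0.09 per hour, where the median of all genes was near 0). Bag2, an inhibitor of the ubiquitin ligase CHIP, was higher with Epo (9.43 ± 0.15 against 8.48 ± 0.60 without, SD, n = 7 hours each, difference 0.96 ± 0.20, adjusted p = 0.00294). Dnajb4, an HSP40 gene, was lower (8.31 ± 0.25 against 9.16 ± 0.11, difference -0.85 ± 0.09, adjusted p = 3.56e-05), with no overlap of the arrays, as was the HSP110 gene Hspa4l (-0.68 ± 0.10, adjusted p = 0.000258, after -0.51 at 0 h). Without Epo 10 of the 16 fell over time and 2 rose, and late with Epo 9 fell and 3 rose.

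Genes around HSP90 gave 0 higher and 3 lower of 10 in the mean (median 0.03), below the 38.4% of all genes called. The 3 were the immunophilin genes Fkbp5 (-0.65 ± 0.10, adjusted p = 0.000331) and Fkbp4 (-0.41 ± 0.07, adjusted p = 0.000701) and Stip1 (-0.36 ± 0.11, adjusted p = 0.0211), which links HSP70 to HSP90. These 3 had differences of -0.36, -0.37 and -0.38 at 0 h. In the list the slope of the difference was rising in 4 of 10 and falling in 0, against 7.26% and 7.97% of all genes, and 7 of 10 fell over time without Epo, against 15.4%. The cytosolic chaperonin CCT and prefoldin, which fold actin and tubulin, gave 4 higher and 1 lower of 14 in the mean (median 0.13), near the 38.4% of all genes. The prefoldin genes Pfdn4 (1.47 ± 0.16, adjusted p = 3.24e-05), Pfdn5 (1.26 ± 0.07, adjusted p = 8.16e-07) and Pfdn1 (0.56 ± 0.08, adjusted p = 0.000154) were higher, after 0.43, 1.05 and 0.49 at 0 h. In this list the slope was rising in 8 of 14 and falling in 0, against 7.26% and 7.97% of all genes. Over time without Epo 10 of 14 fell and 0 rose, against 15.4% and 13.3%.

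Mitochondrial chaperones and proteases were split, with 4 higher and 3 lower of 11 in the mean (median 0.22), where 18.2% and 20.2% of all genes were called. Hspa9, the mitochondrial HSP70 gene, was lower (-0.83 ± 0.09, adjusted p = 4.08e-05, after -0.76 at 0 h), as was Clpx, the unfoldase of the ClpXP protease (-0.76 ± 0.09, adjusted p = 6.64e-05, after -0.36 at 0 h). Grpel2, a nucleotide exchange factor for mitochondrial HSP70, was higher (0.79 ± 0.13, adjusted p = 0.000523, after 0.40 at 0 h). Of 5 small heat shock and collagen chaperone genes, Hspb6 was lower (-1.27 ± 0.20, adjusted p = 0.000363) and the other 4 did not pass. The list of other heat shock factors held 3 genes, and its factor genes Hsf2 and Hsf4 did not pass. Hsbp1, which encodes a binding protein of HSF1 rather than a factor, was higher (0.46 ± 0.09, adjusted p = 0.00132), after 0.56 at 0 h.

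Immediate early genes respond within minutes to many stimuli. In the mean, 10 of 12 were lower with Epo and 1 higher (median -1.45), against 20.2% and 18.2% of all genes. Jun (-3.14 ± 0.18, adjusted p = 8.6e-07) and Ier2 (-2.73 ± 0.17, adjusted p = 1.07e-06) were lower and Egr1, which is downstream of ERK, was higher (2.33 ± 0.23, adjusted p = 1.94e-05). Their median difference at 0 h was 0.62, with 9 of 12 higher in the series with Epo.

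**Figure D4:**
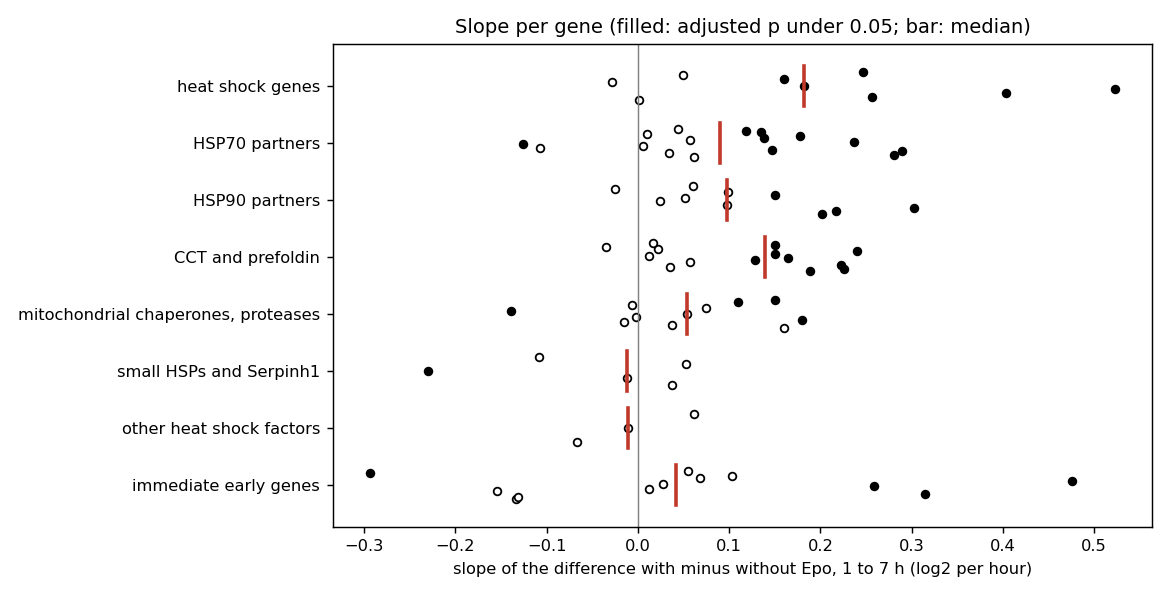
Slope of the difference between the series (with minus without Epo, log2 per hour, 1 to 7 h; horizontal axis) for each gene of the heat shock genes and of 7 related lists, with filled points for an adjusted p under 0.05 and a red bar at the median. The medians are 0.18 for the heat shock genes and 0.14 for CCT and prefoldin. Those of small heat shock genes and of other heat shock factors, listed with Hsbp1, lie around 0.

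The genes whose levels ran most like 3 of the heat shock genes over the 20 arrays differed between them. For Hspa1a they were Fos (Pearson r = 0.85), Chst15 (0.85), Anxa6 (0.84), Mst1r (0.84) and Dusp6 (0.83). For Hsp90aa1 they were Mrps5 (0.98), Tomm70a (0.98), Tbl3 (0.97), Ide (0.97) and Prmt5 (0.97). For Hspd1 they were Set (0.99), Stip1 (0.99), Thop1 (0.98), Gart (0.98) and Pes1 (0.98). Among the heat shock genes themselves, r was 0.98 for Hsph1 with Hspd1, 0.93 for Hsp90aa1 with Hspd1, 0.43 for Hspd1 with Hspe1 and -0.02 for Hspa1a with Hspe1. These values describe 20 arrays of 2 time courses, whose neighbouring hours are not independent.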

How the data were processed

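RNA of 20 samples was measured on 1-colour Affymetrix arrays, with 1 array per sample. The authors deposited log2 values, which ranged from 1.37 to 14.6. Their summarisation and scaling are not stated in the labels or headers. Arrays carry no read depth, and their number limits the precision.

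Of 45101 probe sets, 34958 named 1 gene in the platform annotation, 932 several, and 9211 were unnamed here. Symbols were checked against a RefSeq gene table by gene ID, where 34754 matched and 0 changed. No filter on dim genes was used. All comparisons were fitted over 18194 genes with limma 3.58.1 in R 4.3.3 (empirical Bayes with trend), with p-values adjusted by Benjamini-Hochberg over all genes and called under 0.05. Hour was a block in the comparisons between the series, since the labels give each hour in both. The fits were tested on simulated data with independent noise, which leaves out the dependence between successive hours of a time course. Tables used Python 3.11.15 with pandas 2.3.3, and plots matplotlib 3.10.9.

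The heat shock genes and all lists were chosen with earlier results of these data known. In addition to the 9 genes, the text names up to 3 called genes per related list with the largest mean difference, the 5 genes most like each of Hspa1a, Hsp90aa1 and Hspd1, and markers of high level. Alternatives were other scalings, brighter genes only, other choices of probe set, another variance model, each hour left out, no block, drift and other time scales.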

Additional observations from a re-analysis of the deposited data

Results flagged for a closer look

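1 array stood far from the others of its group for both inducible HSP70 genes. With Epo at 1 h, Hspa1a lay at 9.19, where the next highest of the 7 arrays of 1 to 7 h was at 4.90, and Hspa1b at 10.55, where the next was at 6.98. Both come from the same array. The rule marks about 1 in 20 groups of independent arrays by chance, and successive hours of a time course are not independent. The 0 h array with Epo, left out of the group, lay near at 8.86 for Hspa1a and 9.88 for Hspa1b. Without Epo, the 1 h array was also the highest for both genes, at 11.25 and 12.20.

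The difference between the series changed from 1 to 7 h by the test of the slope for 6 genes. The slopes were 0.40 per hour for Hspa1a, 0.52 for Hspa1b, 0.25 for Hsph1, 0.26 for Hsp90aa1, 0.18 for Hspa8 and 0.16 for Hspd1 (limma, adjusted p from 1.55e-05 to 0.0275).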

How the results depend on the processing

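No called gene changed direction under any alternative. Of the mean at 1 to 7 h, 1 higher and 5 lower genes became 3 lower with no replicate block (the hours not paired) and 2 higher with probe sets without cross-hybridising suffixes, which leave 7 genes and take the dim probe set of Hspa8 (1.42, adjusted p = 1.74e-06). An exact sign-flip permutation of the 7 pairs gave p = 0.0156, the smallest it can give, for Hspa1a, Dnajb1 and Hspe1. From 0 h, 0 called genes became 1 higher and 2 lower with drift allowed. Without Epo, 1 rising gene became 0 without the variance trend. Late with Epo, the 1 rising gene, Hspb1, lost its call with the mean of all probe sets or against 6 to 8 h. Without the suffixes no gene was called rising, but neither Hspb1 nor Hsph1 has a probe set in that setting. Against 6 to 8 h, 6 falling genes became 3. Leaving out 1 hour at a time, the mean gave 1 higher and 4 to 5 lower, the 0 h contrast 0 higher and 0 to 1 lower, the slope 3 to 7 rising and 0 falling, the time without Epo 0 to 1 rising and 4 to 7 falling, and the late comparison 1 rising and 4 to 6 falling. Over all genes, centring each array on its median moved the share of higher calls in the mean from 47.44% to 34.81%, and in the late comparison from 48.75% to 37.07%; 12 genes called from 0 h became 244 higher and 434 lower with drift. Late calls over all genes became 1045 higher and 1851 lower against 6 to 8 h.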

Other observations

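Another probe set of Hspa8, dim and not used above, fell in the first hour in both series, by 1.82 with Epo (5.49 at 1 h) and by 2.34 without (4.18 at 1 h), while the bright probe set used for Hspa8 was 0.10 and 0.12 above its 0 h value. At 5 h it lay at 6.74 with Epo and 5.16 without.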
